A study of Rattus norvegicus with 12 samples.

Results

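The 7 genes described here encode contractile proteins of slow-twitch muscle fibres: the myosin heavy chain Myh7, the myosin light chains Myl2 and Myl3, the troponins Tnnc1, Tnni1 and Tnnt1, and the tropomyosin gene Tpm3. They were picked by name from a fixed list, and all 7 were found among the 30560 genes of the deposited count matrix. The matrix holds 12 RNA libraries of mitochondrial preparations from hindlimb muscle of 1 wild-type male Wistar Kyoto rat aged 14 weeks. The mitoplast_RNase group held mitoplasts, mitochondria whose outer membrane has been removed, made from organelles captured on antibody-coated magnetic beads. The IP_RNase_ProK group held captured mitochondria treated with proteinase K, which digests proteins exposed on the organelle. The IP_RNase group held captured mitochondria without that step, and the crude_RNase group held crude mitochondria spun down without beads. Each group had 3 libraries. RNase A, which digests RNA that it can reach, was used on all 4 groups. The series text names the gastrocnemius, while the protocol names hindlimb muscles whose homogenate was pooled, so libraries are aliquots of 1 animal's pool. The p-values therefore cover the variation among aliquots, which may be technical, and not that among animals.

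Skeletal muscle fibres contract when myosin heads on thick filaments pull on actin. Troponin C binds calcium, troponin I holds tropomyosin over the myosin sites at rest, and troponin T ties both to tropomyosin along the thin filament. Slow and fast fibres build this machine from different genes. The slow forms Myh7, Myl2, Myl3 and Tnnc1 are also expressed in the ventricle of the heart. Tpm3 additionally gives short tropomyosins in many non-muscle cells, which counts per gene do not separate. All of these messages are made in the nucleus and translated in the cytosol.

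The libraries held 3325430 to 4563254 counts in the 3 bead-captured groups and 6583452 to 7123045 in crude_RNase. Mitochondrial-chromosome genes took 2.06% to 10.9% of the counts in the captured groups and 41.2% to 54.0% in crude_RNase. RNA input to the libraries was 40 ng in the captured groups and 6.3 ng in crude_RNase, so input and preparation cannot be told apart. Genes whose names start with Olr, the rat olfactory receptor symbols, are not normally transcribed in muscle, and the median of 1115 such genes still had 37 to 49 counts in captured libraries and 30 to 34 in crude ones. The skeletal muscle markers Acta1, Ckm, Ttn, Ryr1, Cacna1s and Des were all above the 95th percentile of the Olr genes in every crude library, 6 of 6, and 4 of 6 were so in each captured group.

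All 7 slow-fibre genes were lower in each captured preparation than in crude mitochondria, by amounts that left between 0.514 and 0.752 of the crude level. In mitoplast_RNase, 7 of 7 fell relative to crude_RNase, with a median log2 fold change of -0.64 (edgeR quasi-likelihood test, Benjamini-Hochberg adjusted p from 2.13e-10 to 0.0102). In IP_RNase_ProK, 7 of 7 fell, with a median of -0.68 (edgeR adjusted p from 6.11e-10 to 0.00471). In IP_RNase, 7 of 7 fell, with a median of -0.83 (edgeR adjusted p from 3.02e-11 to 0.0112). Among all 26483 genes tested, 4.54%, 5.04% and 5.09% were called lower in the same 3 comparisons, and the median over all genes was 0.00, 0.00 and 0.01. The 3 comparisons share the crude libraries and are therefore not independent of each other. In such bulk preparations of 1 pooled homogenate, fewer slow-fibre fragments carried along and less RNA per fragment cannot be told apart.

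The direction is relative to TMM scaling, which takes most genes as unchanged. Scaled by total counts, 6, 6 and 3 of the 7 genes were called higher in mitoplast_RNase, IP_RNase_ProK and IP_RNase than in crude_RNase, and 0 lower. On that scaling 95.2%, 95.2% and 94.7% of all genes were called higher, and the median of all genes moved to 1.07, 1.08 and 1.03. Scaled on the 13 mitochondrial mRNAs, all 7 were called higher in each of the 3 comparisons, as were 99.9%, 99.9% and 99.8% of all genes, and the median of all genes moved to 4.93, 4.95 and 3.81. Relative to that median the genes stayed low under total count scaling, at -0.96 to -0.42, -0.92 to -0.41 and -0.95 to -0.46 in the same order. The plot of 5 scalings shows the 7 genes under the all-gene median throughout.

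**Figure D1:**
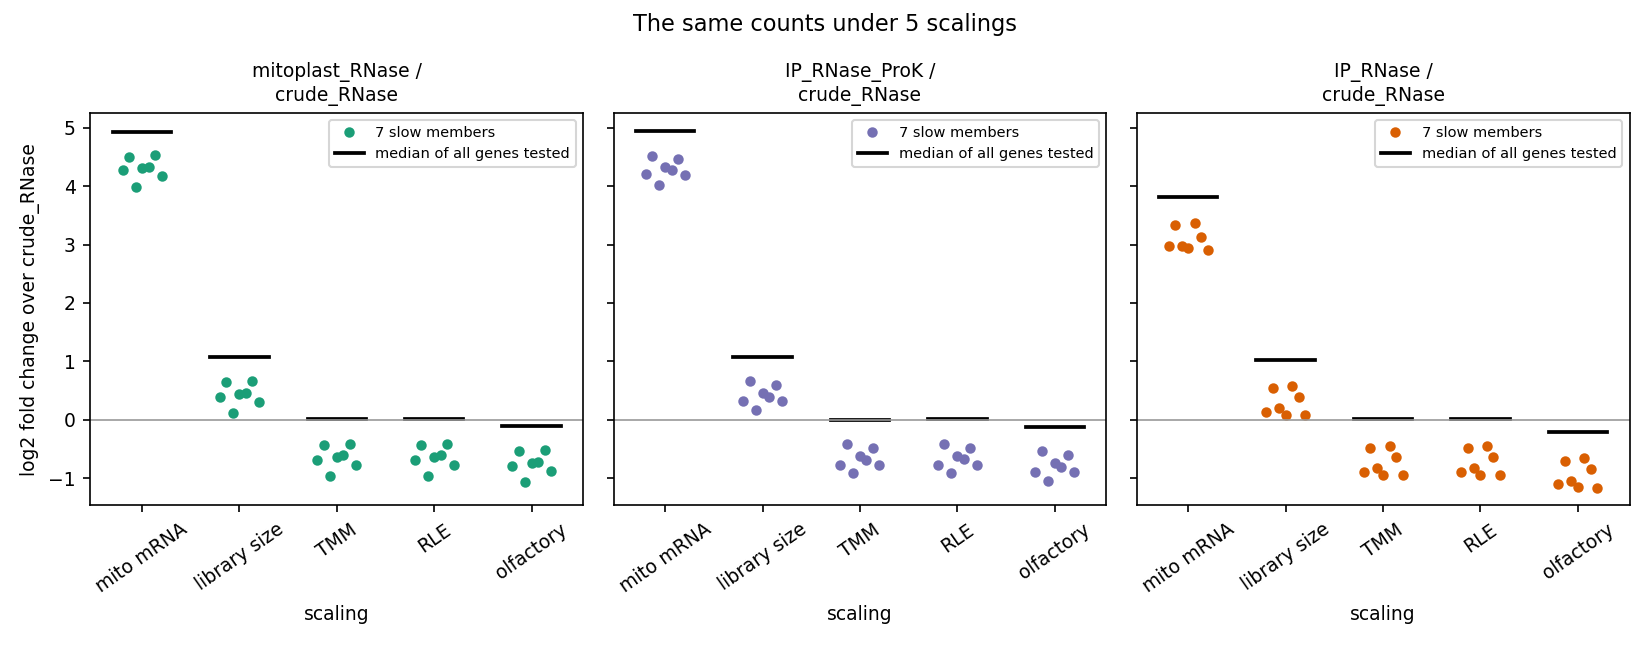
Log2 fold changes of the 7 slow-fibre genes (points) and the median of all 26483 genes tested (black line) for mitoplast_RNase, IP_RNase_ProK and IP_RNase over crude_RNase, under scaling by mitochondrial mRNAs, library size, TMM, RLE and olfactory receptor genes. The points change sign with the scaling, and in every panel all 7 lie below the line.

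Myh7 (ENSRNOG00000016983), the slow myosin heavy chain that hydrolyses ATP to move along actin, had the most counts of the 7 genes. Its level was 110, 134 and 121 CPM in mitoplast_RNase, 113, 121 and 111 in IP_RNase_ProK, 88.4, 116 and 111 in IP_RNase, and 168, 236 and 187 in crude_RNase (CPM, counts per 1000000 of the TMM-scaled library). Each crude library was above all 9 captured ones, and the captured groups overlapped. The mean was 121 ± 11.9 CPM in mitoplast_RNase, 115 ± 5.27 in IP_RNase_ProK and 105 ± 14.9 in IP_RNase, against 197 ± 35.1 in crude libraries (SD, n = 3 each). The log2 fold changes over crude_RNase were -0.70 ± 0.0912, -0.78 ± 0.0916 and -0.90 ± 0.0936 (SE).

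Myl2 (ENSRNOG00000030848) encodes the regulatory light chain that braces the neck of slow myosin, and Myl3 (ENSRNOG00000020955) the essential light chain beside it. Myl2 had 40.7, 36.9 and 40.5 CPM in mitoplast_RNase, 37.7, 36.0 and 45.9 in IP_RNase_ProK, 34.5, 40.1 and 39.2 in IP_RNase, and 52.0, 47.1 and 60.0 in crude_RNase. The highest captured library, IP_RNase_ProK 3, came close to the lowest crude one. Myl2 changed by -0.43 ± 0.102 in mitoplast_RNase, -0.41 ± 0.101 in IP_RNase_ProK and -0.48 ± 0.105 in IP_RNase on the log2 scale (SE). Without crude_RNase 3 its call ended in mitoplast_RNase (-0.34, edgeR adjusted p = 0.0699) and in IP_RNase_ProK (-0.32, edgeR adjusted p = 0.0824). It also ended in IP_RNase_ProK without IP_RNase_ProK 1 (-0.37, edgeR adjusted p = 0.0557) or IP_RNase_ProK 2 (-0.35, edgeR adjusted p = 0.0636). Myl3 was more clearly set apart, with 24.7, 27.9 and 28.7 CPM in mitoplast_RNase, 28.6, 25.5 and 29.3 in IP_RNase_ProK, 32.6, 26.6 and 29.5 in IP_RNase, and 51.6, 53.0 and 53.5 in crude_RNase. Its crude libraries averaged 52.7 ± 1.01 CPM (SD, n = 3), and its log2 fold changes were -0.96 ± 0.105, -0.92 ± 0.104 and -0.83 ± 0.106 in mitoplast_RNase, IP_RNase_ProK and IP_RNase.

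Among the troponins, Tnnc1 (ENSRNOG00000018943), the calcium sensor, had the lowest mean CPM in each group. It stood at 20.1, 24.0 and 26.7 CPM in mitoplast_RNase, 23.2, 23.3 and 25.0 in IP_RNase_ProK, 18.9, 23.4 and 15.1 in IP_RNase, and 35.2, 35.3 and 39.5 in crude_RNase. The crude values were all above the captured ones, and within the captured groups IP_RNase held both lowest libraries. The log2 fold changes over crude_RNase were -0.64 ± 0.127 in mitoplast_RNase, -0.62 ± 0.126 in IP_RNase_ProK and -0.94 ± 0.135 in IP_RNase (SE). In raw terms Tnnc1 had 66 to 94 counts in IP_RNase, more than 75.2% to 90.4% of the Olr genes, and 132 to 157 in crude_RNase, more than 97.8% to 98.8% of them.

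Tnni1 (ENSRNOG00000009073), the slow inhibitory subunit, had 25.5, 28.7 and 28.5 CPM in mitoplast_RNase, 30.4, 27.1 and 20.5 in IP_RNase_ProK, 26.8, 33.1 and 32.5 in IP_RNase, and 44.4, 44.2 and 37.0 in crude_RNase. The gap between crude and captured libraries was narrow, since IP_RNase 2 was close to crude_RNase 3. Its log2 fold changes were -0.61 ± 0.119 in mitoplast_RNase, -0.68 ± 0.12 in IP_RNase_ProK and -0.45 ± 0.12 in IP_RNase. The call in IP_RNase ended without IP_RNase 1 (-0.36, edgeR adjusted p = 0.141) and with DESeq2 (-0.44, adjusted p = 0.0562). Tnnt1 (ENSRNOG00000028041), the slow subunit that anchors troponin to tropomyosin, had 36.6, 36.0 and 36.6 CPM in mitoplast_RNase, 38.1, 34.2 and 30.8 in IP_RNase_ProK, 30.1, 26.9 and 36.4 in IP_RNase, and 50.7, 53.8 and 40.1 in crude_RNase. Here too the crude libraries were highest, with crude_RNase 3 nearest to the captured ones. Tnnt1 changed by -0.41 ± 0.109 in mitoplast_RNase, -0.49 ± 0.109 in IP_RNase_ProK and -0.63 ± 0.114 in IP_RNase. Its call in mitoplast_RNase ended without mitoplast_RNase 2 (-0.40, edgeR adjusted p = 0.0517), without crude_RNase 2 (-0.33, edgeR adjusted p = 0.0951) and with DESeq2 (-0.41, adjusted p = 0.0621).

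Tpm3 (ENSRNOG00000017441), whose long muscle product is the tropomyosin that covers the myosin sites on slow thin filaments, had 42.4, 48.7 and 41.4 CPM in mitoplast_RNase, 40.6, 44.6 and 47.2 in IP_RNase_ProK, 38.2, 40.3 and 38.7 in IP_RNase, and 65.5, 84.6 and 77.4 in crude_RNase. The 3 IP_RNase libraries were below every other library. The log2 fold changes over crude_RNase were -0.77 ± 0.0935 in mitoplast_RNase, -0.78 ± 0.0934 in IP_RNase_ProK and -0.95 ± 0.0975 in IP_RNase.

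For 7 of 7 genes the 3 crude libraries were above all 9 captured ones, which held for 5.68% of all genes tested. The range of crude values did not overlap with that of the captured group for 7 of 7 genes in each comparison, against 10.7%, 11.3% and 10.8% of all genes with separate, lower ranges in mitoplast_RNase, IP_RNase_ProK and IP_RNase.

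**Figure D2:**
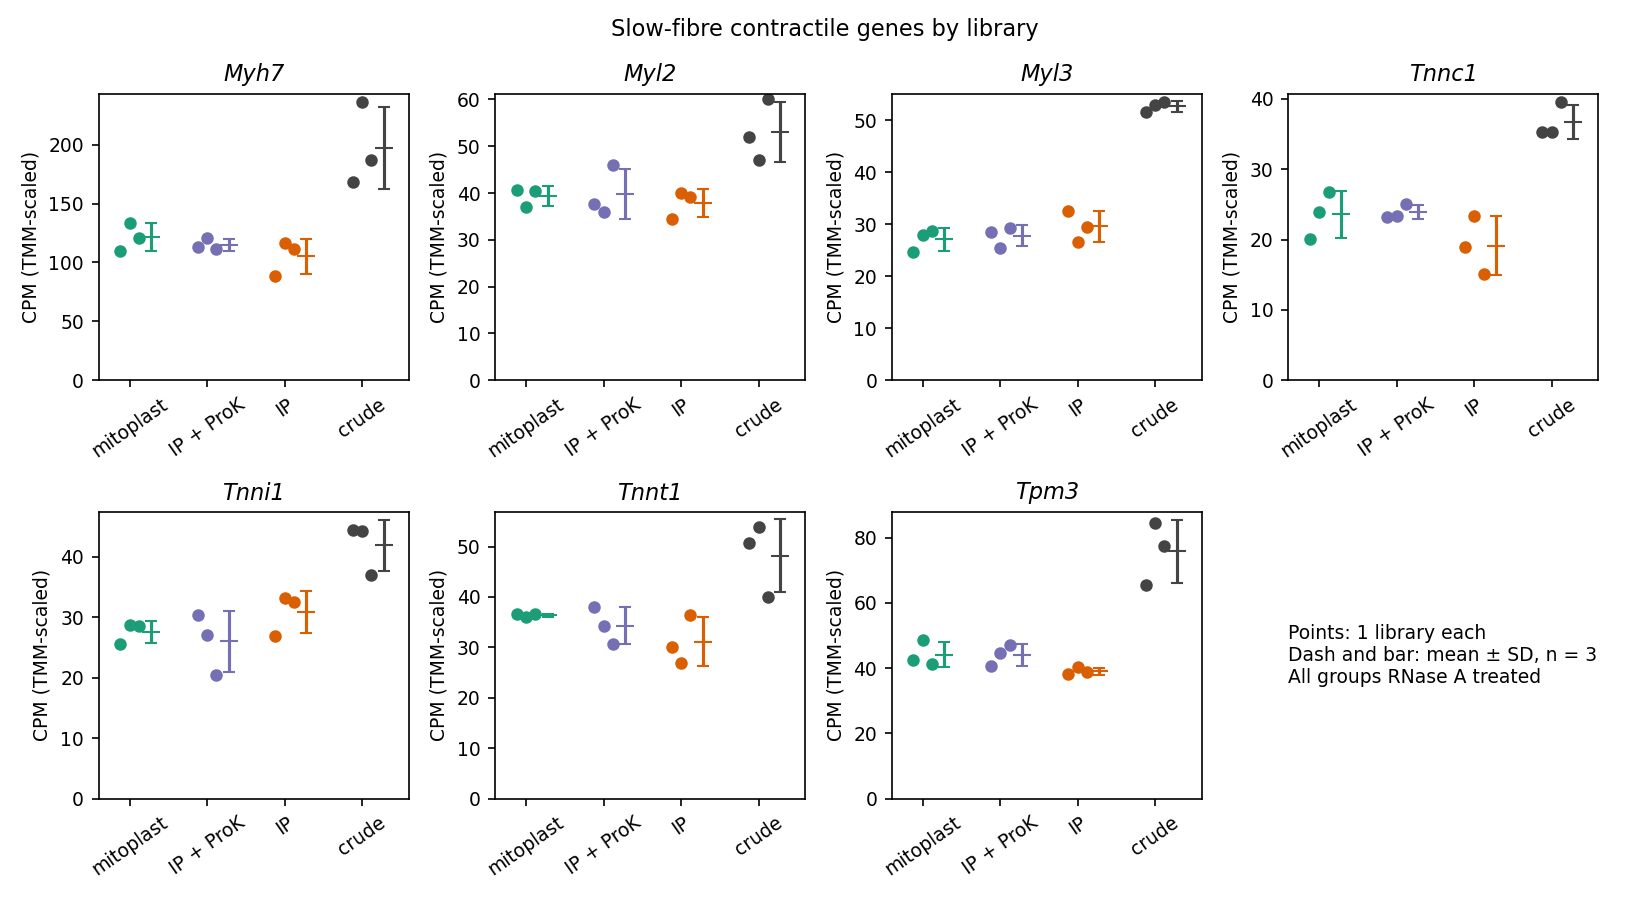
CPM of each slow-fibre gene in each library (points) with the mean ± SD of 3 libraries beside them, for mitoplast_RNase, IP_RNase_ProK, IP_RNase and crude_RNase. In all 7 panels the 3 crude libraries are the highest, and the 3 captured groups lie close together.

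The proportions among the 7 genes, which need no scaling, overlapped between each captured group and crude_RNase for Myh7, Tpm3, Tnnc1 and Tnnt1. Myh7 made up 37.9% ± 1.65 of the summed counts of the 7 genes in mitoplast_RNase, 37.0% ± 1.61 in IP_RNase_ProK, 35.8% ± 2.69 in IP_RNase and 38.8% ± 3.43 in crude libraries (SD, n = 3 each). Tpm3 made up 13.8% ± 0.894, 14.2% ± 1.11, 13.4% ± 0.728 and 14.97% ± 0.852 in the same order. Tnnc1 had the smallest mean share in each group, with 7.37% ± 0.815, 7.67% ± 0.346, 6.54% ± 1.38 and 7.30% ± 0.831. Myl3 had 8.22% to 8.88% in mitoplast_RNase and 8.19% to 9.45% in IP_RNase_ProK, below the 9.57% to 11.04% of crude_RNase, while IP_RNase at 8.69% to 12.1% overlapped with it. Tnni1 had 9.95% to 10.8% in IP_RNase, above the 7.48% to 9.50% of crude_RNase, and Myl2 had 12.8% to 13.1% in IP_RNase, above the 8.50% to 12.1% of crude_RNase. For these 2 genes the mitoplast_RNase and IP_RNase_ProK shares overlapped with the crude ones. The shares were not tested. These shares come from raw counts that are not divided by transcript length, so they do not rank the genes by number of molecules.

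**Figure D3:**
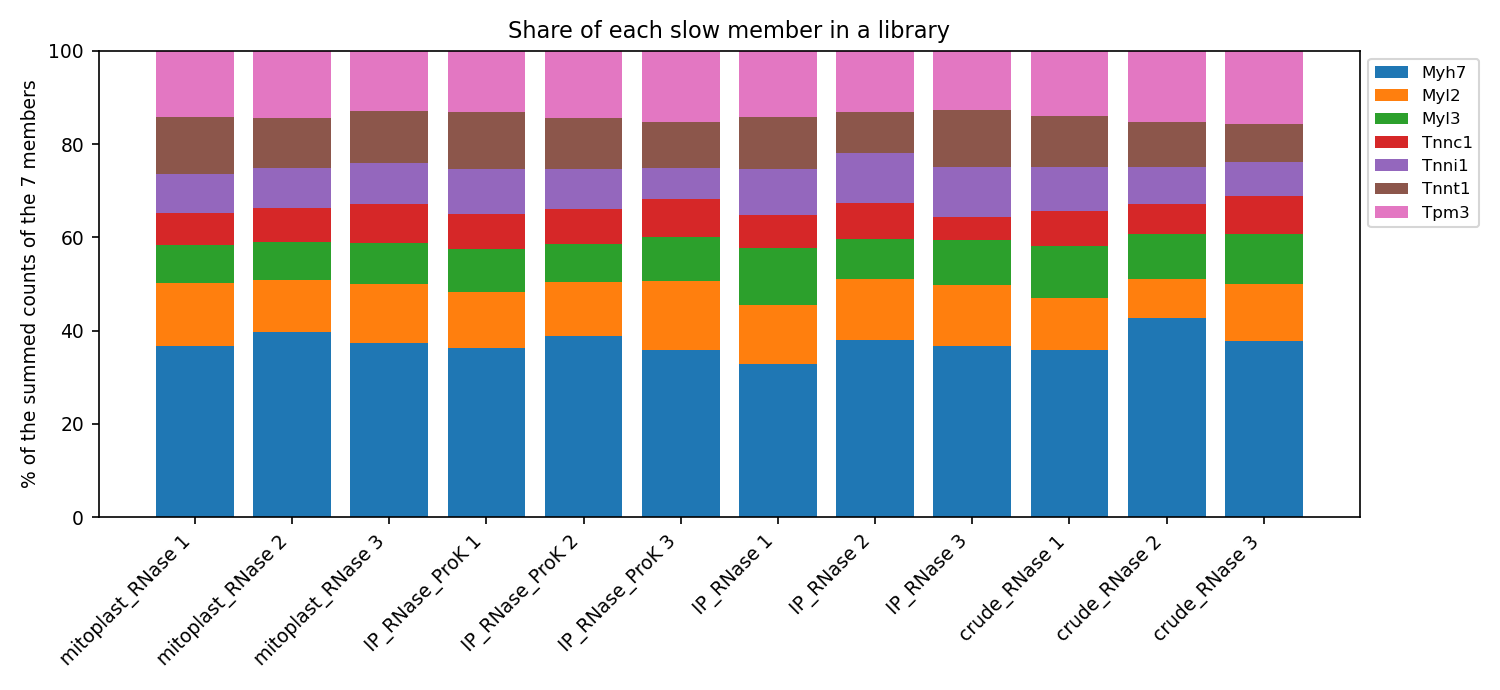
Share of each of the 7 slow-fibre genes in their summed raw counts (%) for each of the 12 libraries. Myh7 is the largest part of every bar, between 32.8% and 42.6%, and no gene's segment separates all 4 groups.

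The fast-fibre counterparts of these genes had larger negative fold changes. All 8 tested genes of that list (Myh2, Myh4, Myl1, Mylpf, Tnnc2, Tnni2, Tnnt3 and Tpm1) fell in each captured group, with a median log2 fold change of -3.51 in mitoplast_RNase, -3.60 in IP_RNase_ProK and -3.58 in IP_RNase. Against this, 4.54%, 5.04% and 5.09% of all genes were called lower. Myh1, also on the list, has no row under that name in the deposited matrix and could not be tested. Tpm1 is the tropomyosin of fast fibres and is expressed in the heart as well. Myh2 fell least of the 8, at -1.99 ± 0.0891 in mitoplast_RNase, -2.04 ± 0.0893 in IP_RNase_ProK and -1.89 ± 0.0895 in IP_RNase. Myh4, the fastest heavy chain of rat limb muscle, was at -2.79 ± 0.104 in mitoplast_RNase, -3.16 ± 0.106 in IP_RNase_ProK and -2.87 ± 0.105 in IP_RNase. Mylpf, the fast regulatory light chain, was at -4.67 ± 0.107, -4.67 ± 0.107 and -4.67 ± 0.109. Some slow and fast genes had similar, low counts in captured libraries. Tnnc2 had 66 to 78 raw counts in IP_RNase and Tnnc1 66 to 94, against 1163 to 1593 and 132 to 157 in crude_RNase. Others did not, such as Myh4 with 747 to 1063 in IP_RNase. The part of a shared background level in the gap between slow and fast fold changes was not tested.

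**Figure D4:**
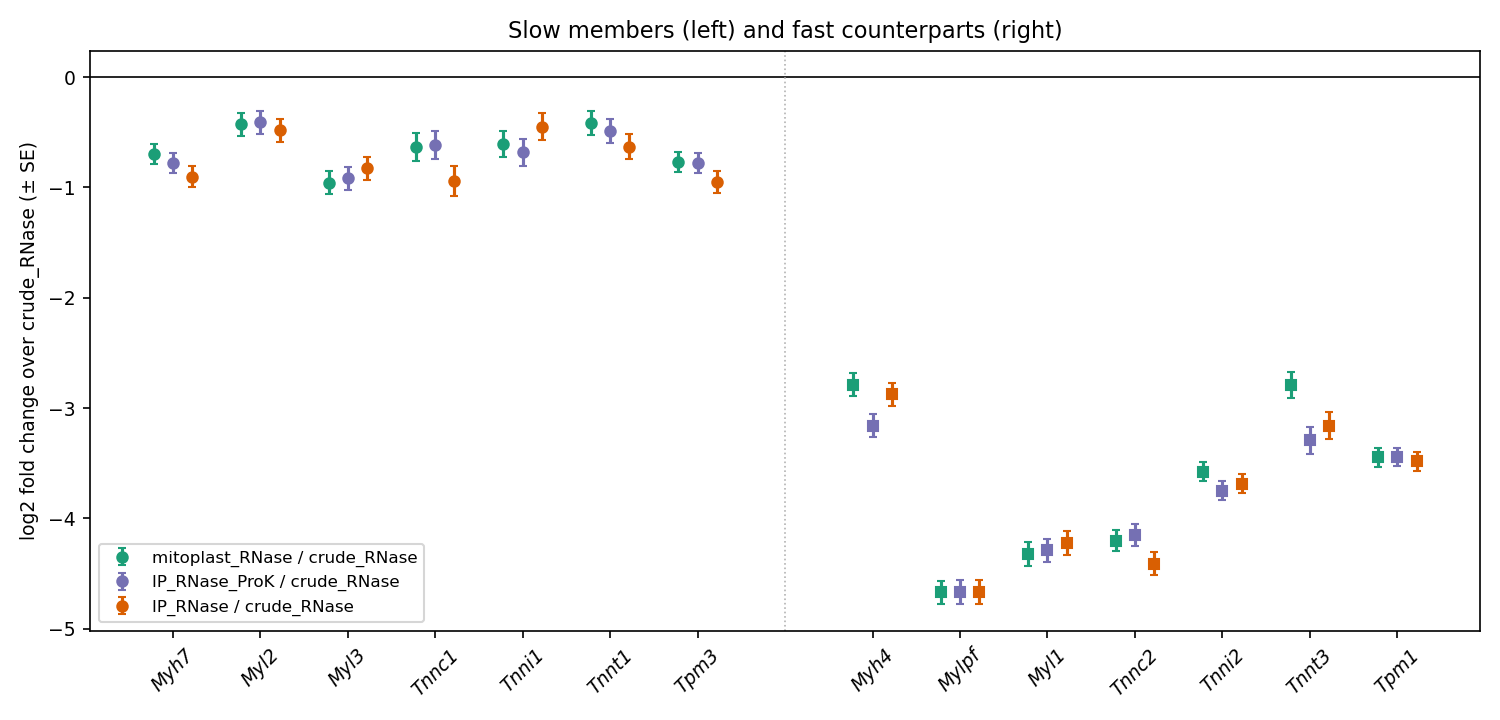
Log2 fold change over crude_RNase (± SE) of the 7 slow-fibre genes (circles, left) and of a fast counterpart of each (squares, right) in mitoplast_RNase, IP_RNase_ProK and IP_RNase. Slow genes lie between -0.96 and -0.41 and the fast genes drawn between -4.67 and -2.79, on TMM scaling. Myh2, the fast gene that fell least, is not drawn. Some genes of both sets had low counts in captured libraries, and the part of background in the gap was not tested.

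A ratio of slow to fast counts inside 1 library does not depend on scaling between libraries. Crude mitochondria held many more fast than slow reads. The Tnnc1 to Tnnc2 count ratio was 1.18, 1.01 and 1.48 in mitoplast_RNase, 1.12, 1.06 and 1.36 in IP_RNase_ProK, 1.04, 1.42 and 0.930 in IP_RNase, and 0.0988, 0.0884 and 0.122 in crude_RNase. The Myl2 to Mylpf ratio was 2.31, 2.46 and 2.59 in mitoplast_RNase, 2.26, 3.04 and 2.36 in IP_RNase_ProK, 1.84, 3.14 and 2.37 in IP_RNase, and 0.143, 0.112 and 0.137 in crude_RNase. For both pairs every captured library was above every crude one, and the captured groups overlapped. Among heavy chains, the Myh7 to Myh4 ratio was 0.505, 0.501 and 0.653 in mitoplast_RNase, 0.666, 0.681 and 0.649 in IP_RNase_ProK, 0.437, 0.625 and 0.457 in IP_RNase, and 0.128, 0.131 and 0.123 in crude_RNase.

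Over the 7 isoform pairs, the geometric mean ratio was 4.305 to 18.9 times that of crude_RNase in mitoplast_RNase, 5.22 to 19.5 times in IP_RNase_ProK and 3.92 to 18.4 times in IP_RNase. In each of these 3 comparisons, 7 of 7 pairs had ranges that did not overlap (two-sided exact permutation p = 0.1 for each pair, adjusted p = 0.175 over 42 tests). With 3 against 3 libraries this test cannot go below 0.1, so none of these differences could pass the threshold. The lowest shift was that of Myh7 to Myh4, and the highest that of Myl2 to Mylpf, in each comparison. In captured libraries both members of some pairs had few counts: Mylpf had 51 to 93 and Tnnc2 66 to 121, beside an Olr median of 37 to 49. The part of that level in the ratios was not tested.

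**Figure D5:**
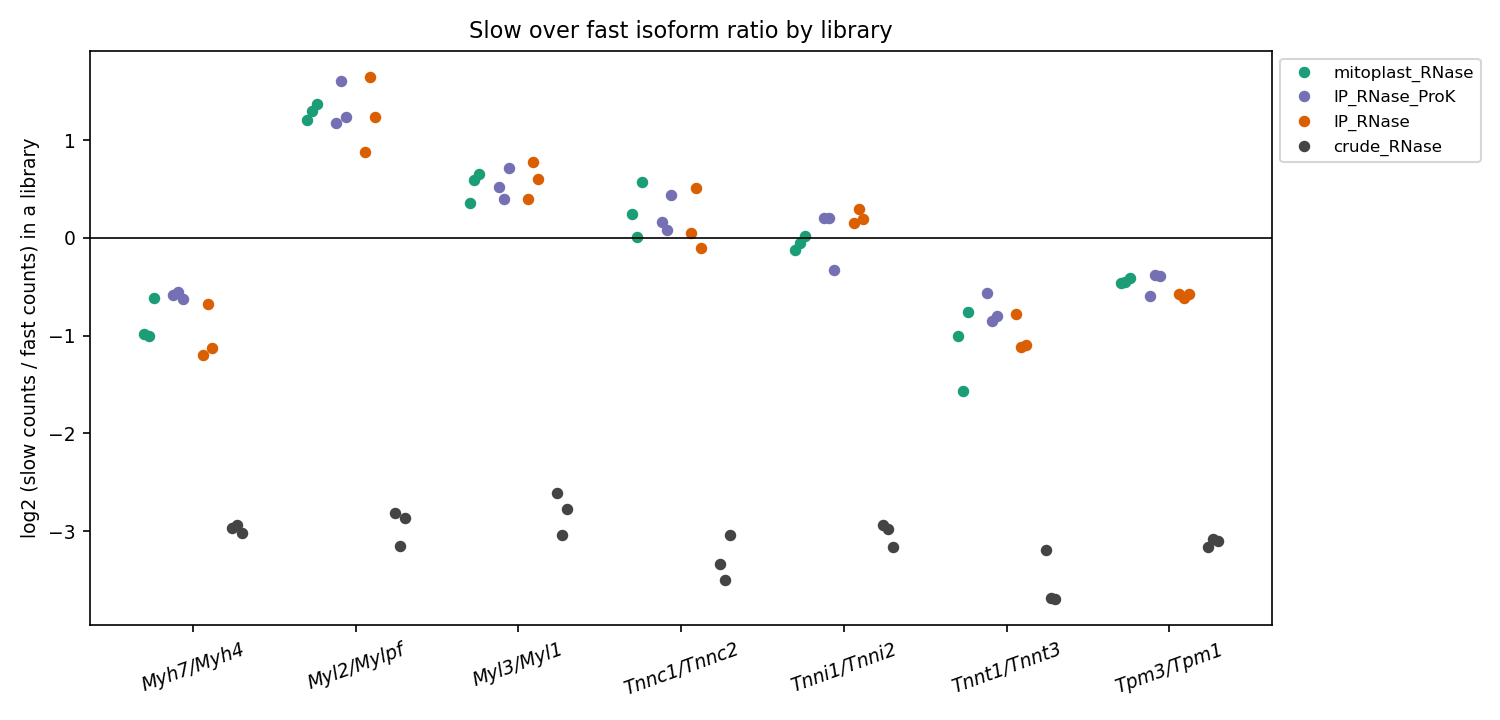
Log2 ratio of slow to fast isoform counts (0.5 added to each) in every library for 7 isoform pairs, coloured by preparation. Crude libraries lie between -3.70 and -2.61 in all pairs, and captured libraries between -1.57 and 1.65.

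On TMM scaling no slow-fibre gene was called between captured preparations. Almost no gene of any kind was called there, so this does not set the slow-fibre genes apart. Between mitoplast_RNase and IP_RNase_ProK, 0 of 7 genes were called (edgeR, 0 at an unadjusted p under 0.05, 0 with DESeq2), with 0.00% of all genes called. Their log2 fold changes ran from -0.04 to 0.08, and the 95% confidence intervals from -0.28 to 0.32. Between mitoplast_RNase and IP_RNase, 0 of 7 were called (edgeR, 2 at an unadjusted p under 0.05, 0 with DESeq2), against 0.155% of all genes, with estimates from -0.16 to 0.31 and intervals from -0.41 to 0.59. The 2 were Myh7 at 0.21 ± 0.0953 and Tnnc1 at 0.31 ± 0.14 (edgeR adjusted p = 0.524 and 0.522). Between IP_RNase_ProK and IP_RNase, 0 of 7 were called (edgeR, 1 at an unadjusted p under 0.05, 0 with DESeq2), against 0.140% of all genes, with estimates from -0.23 to 0.32 and intervals from -0.48 to 0.60. That gene was Tnnc1 at 0.32 ± 0.14 (edgeR adjusted p = 0.491). Scaled on mitochondrial mRNAs, all 7 were called higher in mitoplast_RNase and in IP_RNase_ProK than in IP_RNase, as were 93.4% and 94.0% of all genes. Changes smaller than these bounds could not be seen with this spread.

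Few ranges were separate among the captured groups. Of the 7 genes, 1 was separate from IP_RNase in mitoplast_RNase and in IP_RNase_ProK, namely Tpm3. Between mitoplast_RNase and IP_RNase_ProK 0 of 7 were separate. Of the 7 isoform pairs, 2 were separate between mitoplast_RNase and IP_RNase. Between IP_RNase_ProK and IP_RNase 1 pair was separate, and between mitoplast_RNase and IP_RNase_ProK 0 were. Tpm3 had 41.4 to 48.7 CPM in mitoplast_RNase and 40.6 to 47.2 in IP_RNase_ProK, both above the 38.2 to 40.3 CPM of IP_RNase, where 7.90% and 8.36% of all genes had separate, higher ranges. The Tpm3 to Tpm1 ratio was 0.728 to 0.750 in mitoplast_RNase and 0.654 to 0.674 in IP_RNase, and the Tnni1 to Tnni2 ratio 0.918 to 1.02 and 1.12 to 1.23. The Myh7 to Myh4 ratio was 0.649 to 0.681 in IP_RNase_ProK and 0.437 to 0.625 in IP_RNase. Each of these ratios gave a two-sided exact permutation p = 0.1 and an adjusted p = 0.175.

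Other genes enriched in slow fibres fell too, though not all of them. Of 9 tested, 7 fell in mitoplast_RNase, 7 in IP_RNase_ProK and 6 in IP_RNase relative to crude_RNase, and 0 rose, with medians of -1.19, -1.01 and -1.01. The share of all genes called lower was 4.54%, 5.04% and 5.09% in the same order. Mb, the oxygen store myoglobin, was at -1.57 ± 0.08, -1.68 ± 0.0807 and -1.56 ± 0.0814, and Mybpc1, the slow myosin-binding protein C, at -1.31 ± 0.0838, -1.502 ± 0.085 and -1.38 ± 0.0857. Atp2a2, the calcium pump of the slow sarcoplasmic reticulum, was at -0.51 ± 0.0828, -0.49 ± 0.0825 and -0.74 ± 0.0861. Csrp3, a Z-disc protein, was at -1.27 ± 0.141, -1.19 ± 0.139 and -1.27 ± 0.145. Myh7b and Casq2 did not pass in any of the 3, and Ankrd2 did not pass in IP_RNase; these 3 are named after their values were seen. In the comparisons among captured groups 0 of 9 were called by edgeR.

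Because 4 of the slow genes are also cardiac, markers of heart muscle were followed beside them. Their summed level was 579 to 603 CPM in mitoplast_RNase, 585 to 594 in IP_RNase_ProK, 581 to 602 in IP_RNase and 564 to 607 in crude_RNase, so the 4 groups overlapped. The sum leans on Ryr2, which had the most counts of these markers. Its raw counts were 1043 to 1198 in mitoplast_RNase and 853 to 1028 in crude_RNase. Of 9 markers, 0 fell in mitoplast_RNase and IP_RNase_ProK and 1 in IP_RNase, which was Tnnt2, the cardiac troponin T, at -0.32 ± 0.102 (edgeR adjusted p = 0.0457). With 4.54%, 5.04% and 5.09% of all genes called lower, 0 or 1 of 9 does not set these markers apart. None of the 9 was at 0 in any group, and in each group 4 of 9 were above the 95th percentile of the Olr genes in all of its libraries. Myh6, a cardiac heavy chain, had 542 to 597 raw counts in mitoplast_RNase, 539 to 634 in IP_RNase_ProK, 480 to 560 in IP_RNase and 397 to 568 in crude_RNase. Reads of Myh6 and Myh7 can be shared, as the genes are near-identical copies, so single values of either are uncertain. The ratio of Myh7 to Myh6 counts was 0.923 to 1.14 in mitoplast_RNase, 0.921 to 0.995 in IP_RNase_ProK and 0.760 to 0.973 in IP_RNase, all below the 1.32 to 2.13 of crude_RNase. In captured libraries, then, the slow heavy chain had about as many counts as its cardiac neighbour. Of 5 slow genes set against a cardiac relative, 4 had a higher ratio in all crude libraries than in any captured one; the exception was Tnnt1 to Tnnt2. These ratios were chosen after their values were seen and were not tested.

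Few markers of further cell types passed the test. Among all 26483 genes, 4.54%, 5.04% and 5.09% were called lower in mitoplast_RNase, IP_RNase_ProK and IP_RNase, and 264, 385 and 335 genes higher. With such shares, 0 or 1 call in a list this short does not set a cell type apart from other genes. Relative to crude_RNase, 0 of 5 smooth muscle, 0 of 5 endothelial and 0 of 4 satellite cell markers were called by edgeR in any captured group, and of 5 macrophage and leukocyte markers 1 fell in mitoplast_RNase and 0 in the others. That gene was Mrc1, the macrophage mannose receptor, at -0.32 ± 0.0921 (edgeR adjusted p = 0.0249). Of the fibroblast markers, 5 of 5 fell in each comparison, and their summed level was 351 to 358 CPM in mitoplast_RNase, 336 to 342 in IP_RNase_ProK, 342 to 368 in IP_RNase and 1540 to 1680 in crude_RNase. The 5 did not fall alike. Their log2 fold changes ran from -3.46 to -0.31 in mitoplast_RNase, -3.57 to -0.28 in IP_RNase_ProK and -3.26 to -0.31 in IP_RNase. The part of fibroblasts in the result for Tpm3, which they also express, was not tested.

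By raw counts, 4 of the 7 slow genes in mitoplast_RNase, 4 in IP_RNase_ProK, 3 in IP_RNase and 7 in crude_RNase were above the 95th percentile of the Olr genes in every library of the group. Myh7, Myl2 and Tpm3 were so in all 4 groups, and Tnnt1 in all but IP_RNase. All comparisons with the Olr genes use raw counts that are not divided by transcript length. A long transcript therefore passes this mark more easily than a short one. Passing it thus does not by itself show expression above background. In IP_RNase the cardiac Myh6 had 480 to 560 counts, beside 379 to 486 for Myh7, though reads of these genes can be shared. Counts of the 7 genes ran from 66 to 882, which gives a counting error of 12.3% to 3.37%.

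The genes whose pattern over the 12 libraries was most like that of the slow-fibre set were Pabpc4, Bin1, Fkbp5, Hdlbp, Acadvl and Col6a1, out of 16153 named genes with a mean of at least 50 counts. Likeness was the root mean square difference in centred log2 CPM from the median profile of the 7 genes, and it was 0.0620 for Pabpc4, a poly(A)-binding protein, and 0.0738 for Col6a1, a collagen. The slow genes themselves lay at 0.121 to 0.187. Bin1, a protein that shapes the T-tubule membrane, was at -0.70 ± 0.0852 on the log2 scale in IP_RNase over crude_RNase, and Acadvl, a mitochondrial enzyme of fatty acid oxidation, at -0.71 ± 0.104.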

How the data were processed

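The deposited matrix holds raw counts: whole numbers of reads for each Ensembl gene, with no normalisation, per the file headers. Per the submitters' processing notes, FastQC 0.74, cutadapt 4.6, STAR 2.7.11a, HTSeq and the build mRatBN7.2 were used. Strand setting, annotation release and treatment of multiply matching reads are not stated in those notes, the labels or the matrix. Groups follow the titles and the series design, since source labels name immunoprecipitation for crude mitochondria too.

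The main test was the quasi-likelihood F test of edgeR 4.0.16 in R 4.3.3, with TMM scaling, 12 libraries in 1 model of 4 groups and filterByExpr with a minimum count of 10, which kept 26483 genes and all 7 slow-fibre genes. Benjamini-Hochberg adjustment ran over every gene tested, with a threshold of 0.05. The SE is the absolute log2 fold change over the square root of F, a moderated spread that can be smaller than a gene's own. The fit was also run on simulated counts with seeded changes. Apart from the seeded genes, these counts had 1 mean profile for all groups, without the mitochondrial shift of crude_RNase. They therefore do not test the scaling under that shift. Slow to fast ratios, with 0.5 added to each count, were tested in Python 3.11.15 by listing every split of 6 libraries (two-sided exact permutation test on log2 means). DESeq2 1.42.0, other scalings, filters, a 6-library fit, a replicate block and leaving out each library were alternatives. The members, lists and tests were chosen with earlier results of these data known. The rule for named genes took the 7, their fast counterparts, at most 4 per other list (smallest p in IP_RNase against crude_RNase) and the 6 most alike in pattern. Outside it, the skeletal muscle markers are listed whole as a check of the tissue. Myh7b, Casq2, Ankrd2, Myh6 and Ryr2 were named after their values were seen. Libraries of a group differed beyond sampling noise (chi-square 1.24 to 12.1 per degree of freedom). Counting errors cover counting only, since PCR copies are not independent molecules.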

Additional observations from a re-analysis of the deposited data

How the results depend on the processing

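Scaling decided the direction against crude_RNase. By library size, 6, 6 and 3 genes were called, all higher, in mitoplast_RNase, IP_RNase_ProK and IP_RNase, with medians of 0.44, 0.39 and 0.19. On mitochondrial mRNAs, 7 were called higher in each, with medians of 4.31, 4.28 and 2.98. By library size Myh7 was at 0.39, 0.32 and 0.14, Myl2 at 0.64, 0.67 and 0.54, Myl3 at 0.11, 0.16 and 0.19, Tnnc1 at 0.44, 0.46 and 0.0874, Tnni1 at 0.46, 0.39 and 0.57, Tnnt1 at 0.66, 0.59 and 0.38, and Tpm3 at 0.31, 0.31 and 0.0836, in the same order. On mitochondrial mRNAs Myh7 was at 4.28, 4.21 and 2.98, Myl2 at 4.505, 4.52 and 3.34, Myl3 at 3.98, 4.03 and 2.97, Tnnc1 at 4.31, 4.33 and 2.95, Tnni1 at 4.33, 4.28 and 3.38, Tnnt1 at 4.53, 4.47 and 3.13, and Tpm3 at 4.18, 4.19 and 2.91. On that scaling 7 of 7 genes were also called higher in mitoplast_RNase and in IP_RNase_ProK than in IP_RNase, with medians of 1.27 and 1.23. Myl3 was at 1.01 and 1.06 there, and Tnni1 at 0.95 and 0.91. On olfactory receptor genes the medians were -0.75, -0.81 and -1.05 against crude_RNase, and 0.28 and 0.21 for mitoplast_RNase and IP_RNase_ProK against IP_RNase. These values move with the scaling. Library totals include the mitochondrial share, while scaling on a gene set rests only on the counts of that set.

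Leaving out 1 library gave 6 to 7 genes called in each comparison with crude_RNase, the losses being those given for Myl2, Tnni1 and Tnnt1, with medians from -0.69 to -0.56 in mitoplast_RNase, -0.76 to -0.64 in IP_RNase_ProK and -0.84 to -0.75 in IP_RNase. The median of IP_RNase_ProK against IP_RNase ran from 0.0148 to 0.17. DESeq2 called 6, 7 and 6. RLE scaling, both filters and the 6-library fit called 7 in each. With the summed counts of Myh2 and Myh4 in place of Myh4, the Myh7 difference of IP_RNase_ProK from crude_RNase was 2.10 on the log2 scale. Same-numbered libraries did not clearly deviate together (correlations from -0.172 to 0.099), and the labels state no pairing. Counting noise lowers such correlations, so they cannot exclude a pairing. With the replicate block 7, 7 and 7 genes were called, with medians of -0.64, -0.68 and -0.83. Genes near the level of the Olr genes limit what these libraries can show.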
